A study of Homo sapiens with 36 samples.

Results

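The effect of a small-molecule MEK inhibitor at 300 nM was measured in the colorectal cancer line LoVo, an established human line. The 3 libraries of cells treated with 300 nM inhibitor for 24 hours were compared with the 6 libraries of cells treated for the same time with DMSO, its solvent. These 9 libraries were chosen by their labels from a dose series of 36 libraries, which covers 10 doses in 3 libraries each. DMSO libraries form 2 sets of 3, labelled chip 1 and chip 2, and carry no inhibitor. The cells of all groups were grown in F-12K medium with serum, and the labels name no added genetic change in any group. One cell line at a single time after treatment is all that the comparison covers.

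MEK1 and MEK2 (genes MAP2K1 and MAP2K2) are the kinases that phosphorylate and activate the ERK kinases, the last step of the cascade that runs from growth factor receptors through RAS and RAF. Active ERK induces transcription factors such as the ETS factors and MYC, and at the same time its own brakes, the Sprouty proteins and the dual-specificity phosphatases, so that the RNA of these brakes is widely read as a measure of ERK output. Inhibition of MEK in colorectal cancer cells is known for lowering MYC, arresting cells in G1 and raising the pro-apoptotic protein BIM.

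RNA was read with Ion AmpliSeq, in which a short stretch of each transcript is amplified with its own primer pair and counted. Levels are given as CPM, counts scaled to a common library size, and a difference between groups as a log2 fold change, where 1 is a doubling and -1 a halving. Because each amplicon amplifies differently, CPM compare samples for 1 gene and not genes with each other. In a bulk sample, fewer cells of a kind and less RNA per cell cannot be told apart. Total counts were 3435930 to 4384842 in the 300 nM libraries and 2972186 to 4072743 in DMSO. Of 20802 genes, 12102 had enough counts to be tested. A gene was called when edgeR's quasi-likelihood test, adjusted over all tested genes by the Benjamini-Hochberg method, gave a p below 0.05 against the DMSO libraries of either chip, with the same direction against both. The labels speak of biological replicates without saying how cultures were separated, so p-values measure the spread between these libraries, part of which may be technical.

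The label of the cells was checked against their markers. All 11 epithelial markers were measured, and their summed level was 3994 to 4206 CPM in DMSO and 4638 to 4847 CPM at 300 nM. They did not move together: KRT19 (log2 fold change 1.23), CDH1, CDX1, CDX2 and VIL1 were called higher. KRT8 (-0.31), KRT18 (-0.385) and CEACAM5 (-1.40) were called lower, and EPCAM, KRT20 and LGALS4 were not called. Markers of other cell types were low: the summed level of 8 endothelial markers was 4.43 to 8.16 CPM in DMSO and 5.15 to 9.76 CPM at 300 nM. Among 9 leukocyte markers PTPRC, CD3E, CD3D and MS4A1 were at 0 counts in all 9 libraries, while the sum rose from between 16.5 and 23.9 CPM to between 77.7 and 92.2 CPM, most of it LYZ, lysozyme, which gut epithelium also makes (log2 fold change 2.73, SE 0.19, adjusted p = 2.27e-16). The sum of 9 fibroblast markers went from between 3.28 and 4.51 CPM to between 33.0 and 37.6 CPM. It came from 3 of the 9 genes, COL1A1, COL3A1 and LUM, whereas COL1A2, THY1 and FAP were at 0 in both groups, and DCN and POSTN had 1 count each at 300 nM. What part the rise of these markers had in other results was not tested.

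At 300 nM, 5457 of the 12102 genes were called (45.1%), of which 2678 were higher (22.1%) and 2779 lower (23%). Most changes were moderate: the median absolute log2 fold change of the called genes was 0.80, with quartiles of 0.56 and 1.20. Called genes with at least a 2-fold difference numbered 881 higher (7.28%) and 1024 lower (8.46%), and 175 in each direction differed at least 4-fold. The median of all tested genes was 0.002. The scaling of the libraries sets this median near 0, so a change in RNA shared by most genes could not be seen. These shares over all tested genes stand as the background of each list count. Replicate 3 of the 300 nM group differed more from replicates 1 and 2 than those did from each other, and without it 4682 genes were called, 2304 higher and 2378 lower.

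**Figure D1:**
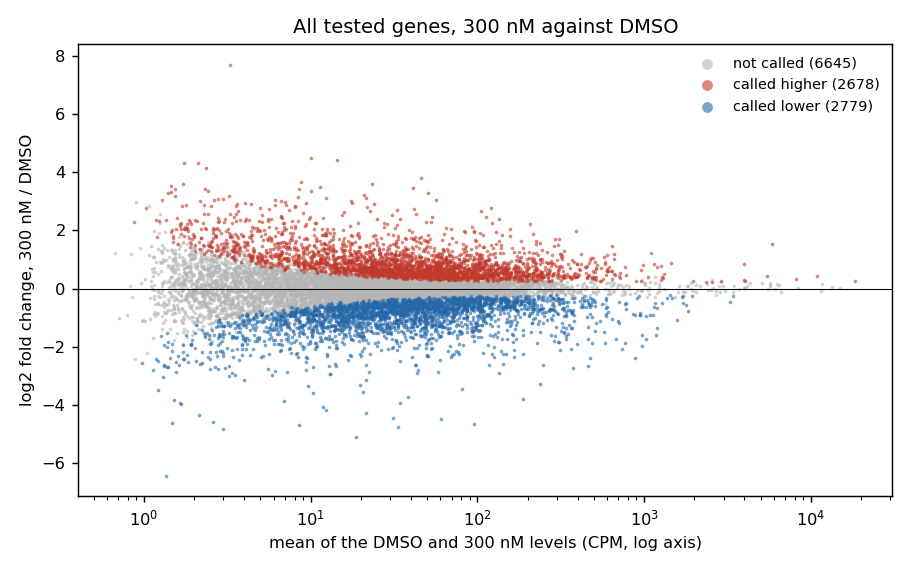
Log2 fold change of 300 nM against DMSO (vertical axis) against the mean of the DMSO and 300 nM levels in CPM (horizontal log axis) for the 12102 tested genes, 1 point per gene. The 2678 genes called higher are red, the 2779 called lower are blue, and both spread over the whole range of levels around the median of 0.002.

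ERK output genes were strongly lowered. Of 10 genes widely used as a readout of MAPK activity, 9 fell, none rose, and the list median was -1.98, against a median of 0.002 and 23% lower among all tested genes. Each of those 9 genes was lower in all 3 libraries at 300 nM than in any DMSO library, beside 26.4% of all tested genes. DUSP6, the phosphatase that removes the activating phosphates from ERK, measured 2.09, 2.33 and 2.57 CPM in the 3 libraries at 300 nM, against 58.5, 63.7 and 69.5 CPM as the lowest, median and highest of the 6 DMSO libraries. The groups lay far apart (log2 fold change -4.77, SE 0.19, adjusted p = 2.32e-26). DUSP4, a nuclear phosphatase of the same family, kept a larger residue, 28.3, 24.5 and 28.8 CPM against 110.1, 118 and 146 CPM (log2 fold change -2.15, SE 0.12, adjusted p = 8.94e-20). The ETS factors ETV4 and ETV5, which carry the ERK signal to growth genes, fell as well. ETV4 had 6.04, 4.67 and 1.802 CPM at 300 nM and 54.5, 65 and 74.3 CPM in DMSO (log2 fold change -3.93, SE 0.20, adjusted p = 8.71e-22), with replicate 3 the lowest of the 3. ETV5 went from 64.6, 71.6 and 80.4 CPM to 6.27, 4.67 and 4.89 CPM (log2 fold change -3.74, SE 0.23, adjusted p = 8.34e-17).

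The Sprouty genes encode inhibitors of receptor signalling upstream of RAS. SPRY4 had 57 counts over the 6 DMSO libraries, 6 to 14 in each, and 0 counts in all 3 libraries at 300 nM. Taking 3 counts in the whole group as the limit that 0 allows, its level was 10.5-fold lower (adjusted p = 8.93e-06). This limit covers the group at 0 only, and the count of the other group is taken without its error. SPRY2 fell less, from 46.6, 59.5 and 61.2 CPM to 20.9, 15.8 and 13.6 CPM (log2 fold change -1.76, SE 0.14, adjusted p = 2.02e-14). EPHA2, a receptor kinase for ephrins whose gene ERK induces, measured 114, 115 and 157 CPM against 432, 447 and 467 CPM (log2 fold change -1.802, SE 0.12, adjusted p = 2.23e-16), and replicate 3 was the highest of the treated libraries. Near the other end of the list were PHLDA1 at -0.47 (SE 0.095) and CCND1, cyclin D1, at -0.40 (SE 0.098). EPHA4 had 4.65, 5.84 and 5.66 CPM against 2.76, 5.40 and 8.18 CPM and was not called (log2 fold change 0.044, SE 0.34, adjusted p = 0.931), and its groups overlapped.

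**Figure D2:**
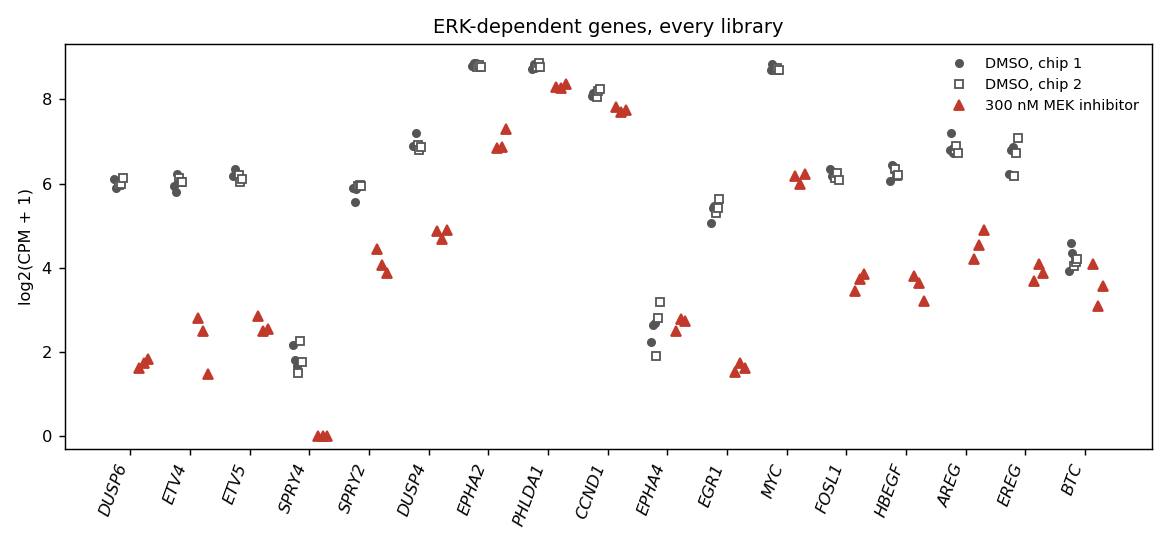
Level of 17 ERK-dependent genes on a log2(CPM + 1) scale in every library: DMSO of chip 1 (filled circles), DMSO of chip 2 (open squares) and 300 nM (red triangles). The groups are separate for DUSP6, ETV4, ETV5, MYC and HBEGF, while the libraries of EPHA4 and BTC overlap, and SPRY4 is at 0 in all 3 treated libraries.

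Of 12 further tested genes known to respond to ERK, 7 fell and 2 rose, beside 23% and 22.1% of all tested genes. Their median was -0.85. FOSL1, an AP-1 subunit whose protein ERK stabilises, measured 9.99, 12.3 and 13.4 CPM against 66.8, 73.0 and 80.4 CPM (log2 fold change -2.63, SE 0.15, adjusted p = 2.42e-19). TNS4, a tensin at focal adhesions, dropped from 18.4, 22.5 and 25.8 CPM to 1.63, 1.17 and 1.03 CPM (log2 fold change -4.08, SE 0.28, adjusted p = 6.17e-17). The Sprouty-related genes SPRED1 and SPRED2 fell by 1.75 and 1.56 on the log2 scale. ELF3, an epithelial ETS factor, and PLAUR, the urokinase receptor, went the other way, at 1.17 (SE 0.16) and 0.72 (SE 0.18).

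Fewer than 4 immediate early genes were called. EGR1, MYC and FOS fell among 7 tested, a share close to the 45.1% called among all tested genes. The other 4 were not called, which left the list median at -0.31 (-0.65 without a low-count filter and -0.67 with at least 1 CPM in 3 libraries). EGR1 had 1.86, 2.33 and 2.06 CPM against 32.3, 41.8 and 48.7 CPM (log2 fold change -4.29, SE 0.25, adjusted p = 9.58e-20). MYC, the transcription factor that drives ribosome and nucleotide synthesis genes, fell from 411, 416 and 454 CPM to 71.3, 62.5 and 73.4 CPM (log2 fold change -2.61, SE 0.10, adjusted p = 2.22e-26). FOS was sparse, 2.56, 0.584 and 2.06 CPM against 3.99, 5.82 and 10.9 CPM (log2 fold change -1.79, SE 0.40, adjusted p = 3.62e-04). KLF6, JUNB, SRF and ATF3 had fold changes of -0.20, -0.31, -0.036 and 0.16. JUN, FOSB, EGR2, EGR3 and IER2 had too few counts to be tested.

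Ligands of the EGF receptor family form a loop in which ERK output feeds the receptors that lie above it. Of 5 tested ligand genes 4 were called lower and none higher, beside 23% and 22.1% of all tested genes, with a median of -2.35. With the genes of few counts kept in, the median was -0.61, and with at least 1 CPM in 3 libraries it was -1.52. HBEGF measured 13.0, 11.4 and 8.24 CPM at 300 nM and 65.6, 76.5 and 85.5 CPM in DMSO (log2 fold change -2.81, SE 0.19, adjusted p = 2.22e-17). AREG, amphiregulin, went from 105, 109.8 and 146 CPM to 17.4, 22.5 and 28.6 CPM (log2 fold change -2.35, SE 0.16, adjusted p = 9.13e-16), and EREG, epiregulin, from 71.3, 108 and 134 CPM to 11.8, 16.1 and 13.6 CPM (log2 fold change -2.88, SE 0.30, adjusted p = 1.44e-08). In these 3 genes every treated library was below every DMSO library. BTC, betacellulin, passed narrowly with groups that overlapped (log2 fold change -0.59, SE 0.21, adjusted p = 0.0470), and it lost the call under 12 of 20 alternative settings, over which its adjusted p ran from 0.00287 to 0.301. TGFA was not called, at -0.42 (SE 0.25).

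Growth factor receptor genes changed in both directions. Of 10 tested, 4 rose and 3 fell, with a median of 0.062. Among all tested genes 22.1% rose and 23% fell. ERBB3, the kinase-poor partner of ERBB2, measured 425, 466 and 477 CPM against 286, 322 and 341 CPM (log2 fold change 0.52, SE 0.093, adjusted p = 1.88e-05). ERBB2 rose by a similar amount, 0.51 (SE 0.11), and FGFR2 from a low level, 1.25, 1.90 and 3.53 CPM, to 5.58, 7.88 and 6.95 CPM (log2 fold change 1.65, SE 0.40, adjusted p = 5.16e-04). MET, the receptor of hepatocyte growth factor, fell from 210.0, 223 and 239 CPM to 113, 129.6 and 83.1 CPM (log2 fold change -1.06, SE 0.16, adjusted p = 3.01e-06), and EGFR stood at -0.38 (SE 0.10), also called lower.

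Among 18 genes of the RAS, RAF, MEK and ERK cascade 5 were called, 4 of them higher, with a median of 0.13. This share, 5 of 18, lay below the 45.1% of all tested genes. MAPK3, which encodes ERK1, had 92.7, 91.7 and 90.6 CPM against 44.2, 44.9 and 50.6 CPM, with no overlap (log2 fold change 0.99, SE 0.11, adjusted p = 1.69e-10). RPS6KA1, the ERK-activated kinase RSK1, rose (log2 fold change 0.64, SE 0.12, adjusted p = 2.48e-05), as did RASA1, a GTPase-activating protein that switches RAS off (log2 fold change 0.46, SE 0.11, adjusted p = 8.39e-04). RPS6KA3, which encodes RSK2, passed at 0.29 (adjusted p = 0.0492) and lost its call under 10 of 20 alternatives, with adjusted p from 0.0219 to 0.227. The inhibitor's own targets, MAP2K1 and MAP2K2, were at -0.21 (adjusted p = 0.113) and 0.21 (adjusted p = 0.250), and NRAS, HRAS, BRAF and ARAF were at 0.29, -0.025, 0.17 and 0.25, none of them called. MAP2K1 and NRAS passed under 1 of 20 alternatives each, the DMSO libraries summed over chips, and with MAP2K2 they also passed where DMSO was taken less strictly, as 1 chip alone or the mean of both. KSR1, SOS1, GRB2, SHC1 and NF1, the scaffold, exchange factor, adaptors and RAS inhibitor, lay between -0.17 (GRB2) and 0.10 (SHC1) and were not called either.

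**Figure D3:**
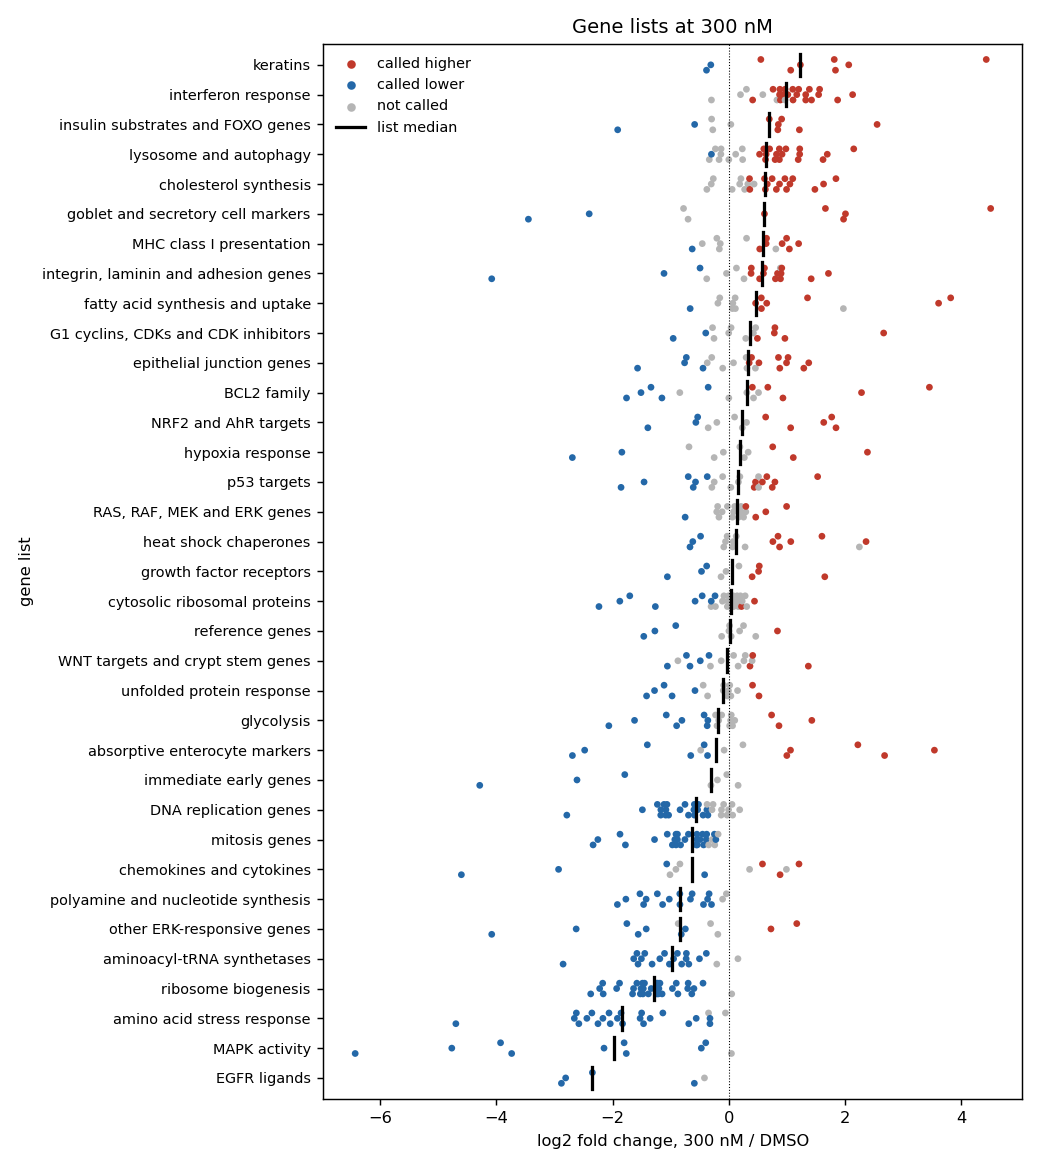
Log2 fold change of 300 nM against DMSO (horizontal axis) for the tested members of 35 gene lists, 1 point per gene, with the list median as a black bar. Lists are ordered by median, from EGFR ligands at -2.35 (-0.61 without a low-count filter) to keratins at 1.23, and most members of the ribosome biogenesis list are blue (called lower) while most of the interferon list are red (called higher).

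Genes that build ribosomes fell nearly as one group. Of 34 tested ribosome biogenesis genes 33 were called lower, beside 23% of all tested genes. The median was -1.29, with medians of -1.33, -1.29 and -1.33 in the 3 single libraries at 300 nM. DDX21, a nucleolar helicase that acts on ribosomal RNA, measured 37.6, 42.6 and 34.8 CPM against 164, 174 and 197 CPM (log2 fold change -2.22, SE 0.12, adjusted p = 1.17e-20). LYAR, a nucleolar protein of growing cells, went from 116, 126 and 137 CPM to 26.9, 31.5 and 25.5 CPM (log2 fold change -2.17, SE 0.13, adjusted p = 1.30e-19). GNL3, nucleostemin, and TCOF1, the treacle protein of ribosomal RNA transcription, fell by 1.64 and 1.66 on the log2 scale. NCL, nucleolin, stood at -2.38, NOP56 at -1.49 and FBL, the fibrillarin methyltransferase, at -0.70. UBTF, which binds ribosomal DNA, was the only tested member not called, at 0.049 (SE 0.12). The E-box that MYC binds, searched as CACGTG on both strands in the 250 bases before each gene (RefSeq, GRCh38.p14), was found in 2 of 28 members with a promoter sequence, UTP20 and EBNA1BP2, beside 9.2% of 9536 tested genes.

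Genes of the structural proteins of the ribosome were mostly not called. Of 32 cytosolic ribosomal protein genes 22 were not called, 8 fell and 2 rose. Among all tested genes 23% fell and 22.1% rose. The median was 0.031, a sign that other settings turned, from -0.015 to 0.047. RPS14 was an exception, with 20.7, 31.2 and 25.2 CPM against 116, 119 and 128 CPM (log2 fold change -2.23, SE 0.15, adjusted p = 3.68e-17), together with RPL8 at -1.88, RPS7 at -1.71 and RPL14 at -1.26. RPL11 rose from 4492, 4626 and 4893 CPM to 6439, 6341 and 6206 CPM (log2 fold change 0.44, SE 0.095, adjusted p = 2.09e-04). Ribosomal protein genes have many near-identical pseudogenes, and reads that the authors' counting could place on either are uncertain.

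Genes for the synthesis of polyamines and nucleotides, which MYC is known to induce, fell in 16 of 18 tested cases with none higher. Their median was -0.84, and 23% of all tested genes fell. SRM, spermidine synthase, had 31.4, 31.2 and 35.0 CPM against 116, 122 and 135 CPM (log2 fold change -1.92, SE 0.12, adjusted p = 4.03e-18). PFAS and PAICS of purine synthesis fell by 1.77 and 1.47 on the log2 scale and CAD, the first enzyme of pyrimidine synthesis, by 1.42. ODC1, ornithine decarboxylase, stood at -0.84 (SE 0.085), and IMPDH1 and SAT1 were not called, at -0.11 and -0.043.

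Replication and mitosis genes were called lower in most cases and higher in none. Of 32 DNA replication genes 21 fell and none rose, with a median of -0.57, beside 23% lower and 22.1% higher among all tested genes. CDC6, which loads the replicative helicase, measured 13.5, 10.2 and 8.24 CPM against 25.5, 30.1 and 36.1 CPM (log2 fold change -1.49, SE 0.19, adjusted p = 1.78e-08), and CDC45, part of that helicase, 22.5, 19.3 and 21.6 CPM against 41.0, 45.3 and 48.3 CPM (log2 fold change -1.09, SE 0.14, adjusted p = 5.99e-09). The clamp loader genes RFC4 and RFC3 both fell by 1.17 and the origin gene ORC6 by 1.06 on the log2 scale. PCNA, TYMS, LIG1 and GINS1 were not called, at 0.054, 0.065, 0.19 and -0.005.

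Of 30 mitosis genes 26 fell and none rose, beside 23% and 22.1% of all tested genes. Their median was -0.63, and without replicate 3 of 300 nM 22 fell. NDC80, of the outer kinetochore, had 4.41, 5.54 and 3.09 CPM against 15.8, 21.6 and 24.2 CPM (log2 fold change -2.25, SE 0.31, adjusted p = 1.43e-07), and AURKB, the kinase that corrects kinetochore attachments, 8.36, 13.1 and 8.24 CPM against 20.7, 24.1 and 26.3 CPM (log2 fold change -1.28, SE 0.19, adjusted p = 1.98e-07). Smaller falls came from MAD2L1 at -0.91 (SE 0.11), KIF2C at -0.89 (SE 0.12), CDK1 at -0.56 and CCNB1 at -0.45. TOP2A, high in dividing cells, was called at only -0.22 (SE 0.082), and KIF20A was not called at -0.18.

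G1 regulators were mixed by role: 5 of 14 rose and 2 fell, with a median of 0.36. The share called, 7 of 14, was close to the 45.1% of all tested genes. CDKN2B, the CDK4 and CDK6 inhibitor p15, measured 177, 187 and 179 CPM against 24.5, 29.4 and 32.5 CPM, the largest change in this list (log2 fold change 2.66, SE 0.13, adjusted p = 3.16e-22). CDKN1A, the CDK inhibitor p21, went from 198, 204 and 209 CPM to 346, 322 and 390.2 CPM (log2 fold change 0.79, SE 0.10, adjusted p = 1.95e-08), and CDKN2C, the inhibitor p18, stood at 0.96 (SE 0.16). CDK4, the kinase that cyclin D activates, fell from 303, 333 and 349.9 CPM to 162, 169.9 and 177 CPM (log2 fold change -0.96, SE 0.10, adjusted p = 3.74e-11). Not all inhibitors rose: CDKN1B, which encodes p27, was not called at -0.28 (adjusted p = 0.0630), although its treated libraries, at 122, 134 and 127 CPM, lay below the DMSO libraries at 147, 153 and 164 CPM, and CDKN2D, the inhibitor p19, was not called at -0.26 (adjusted p = 0.594). CCND2, cyclin D2, was among the 5 that rose, at 0.49 (SE 0.14). CDK2, CDK6 and CCNE1 were not called, at -0.003, 0.038 and 0.29.

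FOXO factors promote quiescence when growth signals fall. Of 11 insulin substrate and FOXO genes 6 rose and 2 fell, beside 22.1% and 23% of all tested genes. Their median was 0.70 (0.35 without a low-count filter). FOXO3 had 89.4, 87.8 and 101 CPM against 44.0, 49.1 and 56.2 CPM (log2 fold change 0.91, SE 0.13, adjusted p = 1.51e-07), and KLF2 rose by 1.21 (SE 0.21), CCNG2 by 0.69 (SE 0.11) and PIK3IP1, an inhibitor of PI3 kinase, by 2.55 (SE 0.51). IRS1, the insulin receptor substrate that recruits PI3 kinase, fell from 73.4, 77.3 and 85.7 CPM to 20.4, 23.4 and 18.5 CPM (log2 fold change -1.91, SE 0.14, adjusted p = 1.44e-16).

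Genes of the amino acid stress program fell. ATF4, its central transcription factor, raises genes for amino acid synthesis, import and tRNA charging when amino acids run short or protein folding fails. Of 24 tested members 22 fell and none rose, at a median of -1.84, beside 23% lower and 22.1% higher among all tested genes. The promoter of ASNS, asparagine synthetase, shows the kind of element ATF4 binds. It is printed here as 250 bases before the start of the gene (RefSeq, GRCh38.p14, chr7:97872409-97872658, minus strand, 5′ to 3′), with a match to the element in capitals, 68 bases before the start.
ASNS promoter: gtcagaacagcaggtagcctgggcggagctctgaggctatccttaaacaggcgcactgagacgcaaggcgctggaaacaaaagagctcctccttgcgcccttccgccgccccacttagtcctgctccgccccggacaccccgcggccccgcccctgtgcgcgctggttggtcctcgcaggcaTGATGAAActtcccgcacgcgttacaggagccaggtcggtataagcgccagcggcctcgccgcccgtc
The letters searched were TGATGNAA on both strands. A match was found in the windows of 2 of 19 members with a promoter sequence, ASNS and CHAC1, and in 2 of 12 tRNA synthetase genes, AARS and IARS, beside 1.4% of 9536 tested genes. Such a match describes the letters and does not show a bound site.

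ASNS measured 40.2, 44.4 and 37.8 CPM in the 3 treated libraries and 223, 242 and 274 CPM as lowest, median and highest in DMSO (log2 fold change -2.58, SE 0.11, adjusted p = 2.25e-24). PSAT1, an enzyme of serine synthesis, had 138, 129 and 111 CPM against 764, 793 and 831 CPM (log2 fold change -2.66, SE 0.10, adjusted p = 2.32e-26). In both genes the treated libraries were a small fraction of every DMSO library. SLC7A11, the cystine importer, fell from 201 ± 5.64 CPM (SD over 3 means of same-numbered DMSO libraries) to 32.4 ± 4.85 CPM (SD, n = 3) (log2 fold change -2.62, SE 0.12, adjusted p = 5.30e-24). MTHFD2, of mitochondrial folate metabolism, fell from 1121, 1195 and 1295 CPM to 288, 274 and 293 CPM (log2 fold change -2.06, SE 0.084, adjusted p = 3.82e-25). The stress effectors DDIT3, TRIB3 and CHAC1 fell by 2.17, 1.92 and 2.25 on the log2 scale, and ATF4 itself by 0.69. CEBPB, a bZIP factor on the list, had the largest fall, 0.465, 1.17 and 0.257 CPM against 13.5, 16.8 and 18.2 CPM (log2 fold change -4.70, SE 0.54, adjusted p = 6.78e-09). NUPR1 and ATF5 were not called, at -0.35 and -0.059.

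Enzymes that load amino acids onto tRNA fell in 18 of 20 cases, at a median of -0.99, where 23% of all tested genes fell. GARS, the glycine enzyme, measured 135, 132 and 157 CPM against 416, 441 and 462 CPM (log2 fold change -1.64, SE 0.10, adjusted p = 1.14e-18). SARS, YARS and MARS fell by 1.58, 1.56 and 1.32 on the log2 scale. KARS and QARS were not called, at -0.21 (SE 0.14) and 0.16 (SE 0.090). Genes of the unfolded protein response, a separate arm of stress signalling, had 5 lower and 2 higher of 16, at a median of -0.093. The 7 called of 16 are close to the 45.1% of all tested genes. XBP1, its spliced transcription factor, fell from 200.1, 223 and 233 CPM to 94.3, 87.6 and 65.6 CPM (log2 fold change -1.42, SE 0.12, adjusted p = 1.41e-13), with HERPUD1 at -1.11 (SE 0.12), HYOU1 at -0.98 (SE 0.13) and PDIA4 at -1.28 (SE 0.19). HSPA5, the chaperone BiP, was not called at -0.007 (SE 0.11).

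Interferon response genes rose, and the labels name no added interferon. These genes are switched on by a STAT and IRF9 complex at an interferon-stimulated response element. Of 26 tested members 20 were called higher and none lower, at a median of 0.99, beside 22.1% called higher among all tested genes. Its core was searched as the letters GAAA, 2 bases of any kind and GAAA again, on both strands and in the 250 bases before the start of each gene (RefSeq, GRCh38.p14). It was found in 12 of 20 members with a promoter sequence, against 2.3% of 9536 tested genes. The list holds genes known to respond to interferon, so this excess was set by the choice of genes and does not bear on the treatment. Of the 12 members, 10 were called higher, a share near the 20 of 26 in the whole list, and IFI44 and ISG20 were not called. The matches of 6 members, all called higher, are printed with flanking bases, 5′ to 3′ on the strand of the gene, with the match in capitals. Matches that begin with TTTC are the same element read from the other strand.
ISG15 (chr1:1013377-1013406, plus strand): gcctcggGAAAGGGAAACCGAAActgaagc
BST2 (chr19:17405738-17405767, minus strand): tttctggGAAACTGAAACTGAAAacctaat
DDX60 (chr4:168318823-168318848, minus strand): gctgaaggGAAACTGAAAcctaagtg
SAMD9 (chr7:93118098-93118123, minus strand): tgagaaatGAAACTGAAAccaaacct
IFIT1 (chr10:89392499-89392524, plus strand): agctttagTTTCACTTTCccctttcg
IFI27 (chr14:94110620-94110645, plus strand): gtctgcagTTTCGGTTTCctggaaaa
In ISG15 and BST2 the capitals span 2 overlapping matches. These matches, too, are descriptions of letters, and STAT or IRF binding was not measured.

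ISG15, a ubiquitin-like protein, measured 188, 153 and 196 CPM at 300 nM and 60.3, 67.7 and 82.4 CPM in DMSO (log2 fold change 1.39, SE 0.13, adjusted p = 1.14e-12). MX1, an antiviral GTPase, had 169.8, 157 and 168 CPM against 63.3, 71.1 and 84.4 CPM (log2 fold change 1.20, SE 0.12, adjusted p = 5.92e-12). DDX60, a helicase, rose from 10.3, 11.8 and 17.0 CPM to 51.3, 38.2 and 47.1 CPM (log2 fold change 1.87, SE 0.17, adjusted p = 1.04e-11). The treated libraries were above every DMSO library in all 3 genes, as they were in 26.1% of all tested genes. IFI6 and IFI27 stood at 2.13 (SE 0.23) and 1.54 (SE 0.22), IFIT1 at 1.56 (SE 0.23), SAMD9 at 1.42 (SE 0.45) and BST2, tetherin, at 0.88 (SE 0.11). IFITM1, a membrane protein that blocks viral entry, went from 109, 124 and 135 CPM to 248, 224 and 242 CPM (log2 fold change 0.94, SE 0.11, adjusted p = 1.65e-09). Of the factors of the pathway, IRF9, IRF7 and STAT2 were called higher, at 1.10, 1.10 and 0.97. USP18, XAF1, IRF1, ISG20, IFI44 and OAS2 were not called, at -0.30, 0.20, 0.30, 0.58, 0.83 and 0.97.

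MHC class I genes, which show peptides to T cells and which interferon also raises, rose in 7 of 14 cases and fell in 1, at a median of 0.59, beside 22.1% and 23% of all tested genes. PSMB9, a subunit of the immunoproteasome, measured 76.4, 83.2 and 95.5 CPM against 38.8, 40.8 and 50.4 CPM (log2 fold change 0.99, SE 0.13, adjusted p = 6.81e-09). The related subunit PSMB10 stood at 1.04 (SE 0.15) and the peptide transporter TAP1 at 0.92 (SE 0.12), whereas TAP2, its partner, fell by 0.63 on the log2 scale. B2M, the invariant light chain, was not called at -0.15. Class I heavy chain genes are near-identical to each other, and how their reads were divided is not known. Of 12 chemokine and cytokine genes 3 rose and 4 fell, with 45.1% called among all tested genes. Their median of -0.63 turned to 0.17 without a low-count filter. NFKBIA, the NF-kappaB inhibitor, rose from 32.6, 35.2 and 37.5 CPM to 88.3, 73.0 and 82.1 CPM (log2 fold change 1.21, SE 0.13, adjusted p = 6.59e-11), and the chemokine receptor CXCR4 fell from 18.4, 24.1 and 26.6 CPM to 2.56, 3.502 and 3.09 CPM (log2 fold change -2.93, SE 0.27, adjusted p = 4.70e-13).

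Of 24 cholesterol synthesis genes 15 rose, none fell and 9 were not called, at a median of 0.62, beside 22.1% called higher among all tested genes. HMGCS1, an early enzyme of the mevalonate pathway, measured 204, 228 and 223 CPM against 56.4, 59.96 and 67.9 CPM (log2 fold change 1.84, SE 0.13, adjusted p = 1.92e-15). INSIG1, the sterol-sensing retention protein that SREBP2 induces, had 156, 156 and 130.2 CPM against 42.7, 47.6 and 51.1 CPM (log2 fold change 1.63, SE 0.13, adjusted p = 4.04e-15). FDFT1 stood at 0.99 (SE 0.10) and FDPS at 1.05 (SE 0.15). SQLE, also an SREBP2 target, was not called, at 0.21. Sterol regulatory elements of the letters TCACNCCAC were found in 1 of 17 members, SREBF2, beside 0.8% of tested genes.

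Fatty acid genes rose in 7 of 15 cases, fell in 1 and were not called in 7, beside the same 22.1%. Their median of 0.46 was 0.29 with only the compared groups in the fit. LIPC, hepatic lipase, measured 87.1, 89.3 and 81.6 CPM against 3.99, 5.89 and 8.57 CPM (log2 fold change 3.82, SE 0.20, adjusted p = 2.71e-22). CD36, a fatty acid importer, went from 2.20, 3.32 and 5.11 CPM to 44.4, 45.2 and 39.1 CPM (log2 fold change 3.61, SE 0.21, adjusted p = 1.32e-19). Both were among the largest rises of the whole comparison, while the synthesis genes FASN, ACACA and ACLY were not called, at 0.068, 0.060 and 0.11. FADS2 rose (log2 fold change 1.35, SE 0.18, adjusted p = 5.26e-07) and its neighbour in the pathway, FADS1, fell by 0.67 on the log2 scale.

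Of 27 lysosome and autophagy genes 17 rose, 1 fell and 9 were not called, at a median of 0.64, where 22.1% of all tested genes rose. GRN, progranulin, measured 473, 441 and 509.9 CPM against 140.3, 146 and 154 CPM (log2 fold change 1.69, SE 0.11, adjusted p = 2.10e-18), and NEU1, lysosomal sialidase, 194, 198 and 215 CPM against 55.6, 66.7 and 71.9 CPM (log2 fold change 1.62, SE 0.11, adjusted p = 4.29e-17). SQSTM1, the autophagy receptor p62, rose from 365, 395 and 455 CPM to 931, 845 and 981 CPM (log2 fold change 1.19, SE 0.096, adjusted p = 1.92e-14). PSAP, the saposin precursor, stood at 0.92 (SE 0.088) and HEXA at 2.15 (SE 0.36). TFEB, a transcription factor of lysosomal genes that ERK can phosphorylate, was not called, at -0.001 (SE 0.31), nor was LAMP1, at -0.34 (SE 0.22).

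BCL2 family genes split within their functional classes: 5 of 15 rose, 5 fell and 5 were not called, beside 45.1% called among all tested genes. Their median of 0.31 was 0.15 without replicate 1 and 0.058 without replicate 3 of 300 nM, and without replicate 3, 4 rose and 4 fell. Among the BH3-only genes, which start apoptosis by binding the protective members, BMF measured 78.3, 73.3 and 75.2 CPM against 5.33, 6.99 and 8.60 CPM (log2 fold change 3.45, SE 0.17, adjusted p = 4.97e-22). BCL2L11, which encodes BIM, had 83.2, 84.6 and 96.0 CPM against 13.2, 17.5 and 24.9 CPM (log2 fold change 2.28, SE 0.14, adjusted p = 1.58e-17). Both stood far above DMSO in every library. BAD rose as well (log2 fold change 0.93, SE 0.15, adjusted p = 2.52e-06). PMAIP1, which encodes NOXA, fell from 64.4, 70.9 and 80.2 CPM to 26.2, 22.8 and 26.2 CPM (log2 fold change -1.51, SE 0.13, adjusted p = 9.34e-14). BID fell (log2 fold change -1.76, SE 0.35, adjusted p = 3.62e-05), as did HRK, where replicate 3 was lowest among 7.90, 8.17 and 2.32 CPM (log2 fold change -1.15, SE 0.26, adjusted p = 4.27e-04). BBC3, which encodes PUMA, and BIK were not called, at 0.51 (adjusted p = 0.0782) and 0.31 (adjusted p = 0.620). BBC3 passed under 4 of 20 alternatives, over which its adjusted p ran from 0.0012 to 0.246.

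Among the protective members, BCL2 fell from 34.4, 38.01 and 45.1 CPM to 14.2, 12.8 and 18.3 CPM (log2 fold change -1.34, SE 0.19, adjusted p = 7.68e-07) and BCL2L1, which encodes BCL-XL, rose from 298, 316 and 325 CPM to 488, 499 and 515 CPM (log2 fold change 0.67, SE 0.11, adjusted p = 1.72e-06). MCL1 was not called, at -0.001 (SE 0.11), and neither was BCL2L2, at -0.84 (adjusted p = 0.0843). Of the pore formers, BAX was called lower at -0.36 (adjusted p = 0.0461) and BAK1 higher at 0.40 (adjusted p = 0.0487), both narrowly. BAX lost its call under 8 of 20 alternatives, with adjusted p from 0.00804 to 0.200, and BAK1 under 11 of 20, with adjusted p from 0.00302 to 0.195. BOK was not called, at 0.42 (adjusted p = 0.383).

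Markers of intestinal differentiation moved in both directions. Of 9 tested goblet and secretory genes 5 rose and 2 fell, beside 22.1% and 23% of all tested genes. Their median of 0.61 ranged from 0.34 with at least 1 CPM in 3 libraries to 1.14 with only the compared groups. MUC20 and MUC13, membrane mucins, measured 20.9, 19.6 and 17.0 CPM and 668, 649 and 539 CPM, against 0.550, 0.839 and 1.02 CPM and 150.3, 154 and 169 CPM in DMSO. MUC20 was among the largest rises (log2 fold change 4.50, SE 0.35, adjusted p = 1.90e-14) and MUC13 rose too (log2 fold change 1.97, SE 0.12, adjusted p = 1.95e-19). MUC2, the gel-forming mucin of goblet cells, went the opposite way, from 131, 149 and 156 CPM to 11.8, 11.97 and 16.7 CPM (log2 fold change -3.45, SE 0.12, adjusted p = 2.99e-27), with REG4, a secreted lectin, at -2.40 (SE 0.11).

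Of 14 tested absorptive enterocyte genes 5 rose and 6 fell, beside 22.1% and 23% of all tested genes. Their median of -0.23 reached 0 without a low-count filter and -0.36 with only the compared groups. CDX2, the master factor of intestinal identity, measured 299.6, 277 and 285 CPM against 128, 139 and 150.8 CPM (log2 fold change 1.06, SE 0.095, adjusted p = 3.34e-13), and VIL1, villin of the brush border, stood at 1.00 (SE 0.11). ALPI, intestinal alkaline phosphatase, and GUCA2A, guanylin, rose by 2.68 (SE 0.52) and 3.54 (SE 0.89). Sucrase-isomaltase, SI, reached 18 counts from 0 in DMSO, which is 10.8-fold higher with the same limit of 3 counts in the group. The chloride exchanger SLC26A3 reached 12 from 0, 7.22-fold higher by that limit, and both genes were too sparse to be tested. They were picked for 0 counts in DMSO and at least 3 in each treated library, so these folds only describe the counts. The CEACAM adhesion genes fell instead: CEACAM6 from 55.3, 57.8 and 64.1 CPM to 10.7, 9.63 and 10.8 CPM (log2 fold change -2.48, SE 0.15, adjusted p = 1.24e-18), CEACAM5 by 1.40 and CEACAM1 by 2.69 on the log2 scale.

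Keratins had the highest median of all lists, 1.23, with 7 of 9 higher and 2 lower, beside 22.1% and 23% of all tested genes. KRT14, a keratin of basal stratified epithelium, measured 25.8, 23.9 and 32.4 CPM against 0.614, 1.13 and 2.04 CPM (log2 fold change 4.43, SE 0.34, adjusted p = 1.96e-15). KRT15, KRT17, KRT16 and KRT13, also of stratified epithelia, rose by 2.06, 1.83, 1.81 and 1.06. KRT8 and KRT18, the pair of simple epithelia, fell by 0.31 and 0.39 on the log2 scale. KRT14, KRT16 and KRT17 are near-identical in long stretches, and reads could be shared.

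Of 20 junction genes 9 rose and 4 fell, at a median of 0.33, and of 20 integrin, laminin and adhesion genes 12 rose and 3 fell, at a median of 0.56. Over all tested genes the shares were 22.1% higher and 23% lower. CDH1, E-cadherin, had 438, 443 and 473 CPM against 228, 250.1 and 267 CPM (log2 fold change 0.85, SE 0.086, adjusted p = 2.37e-11). CLDN4, of tight junctions, and JUP, plakoglobin, stood at 0.99 (SE 0.10) and 1.02 (SE 0.10), while the desmosomal gene PKP2 fell by 1.57 on the log2 scale. LAMA5 and LAMA3, laminin chains of the basement membrane, rose by 1.42 (SE 0.12) and 1.71 (SE 0.17).

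WNT target and crypt stem cell genes held no common direction. Of 16 tested, 3 rose and 5 fell, a share close to that of all tested genes, and the median of -0.025 turned sign between alternatives. LGR5, the receptor of crypt stem cells, was called lower at -0.73 (SE 0.18), ZNRF3, which removes WNT receptors, at -1.06 (SE 0.19) and SOX9 at -0.34 (SE 0.11). AXIN2, a common WNT target, was not called, at -0.32 (SE 0.11), and TNFRSF19 rose from 4.61, 7.83 and 10.6 CPM to 18.8, 21.3 and 19.1 CPM (log2 fold change 1.37, SE 0.22, adjusted p = 3.01e-06).

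Of 20 glycolysis genes 8 fell and 3 rose, at a median of -0.19, beside 23% and 22.1% of all tested genes. HK2, hexokinase 2, measured 28.6, 31.2 and 29.6 CPM against 85.2, 91.5 and 97.8 CPM (log2 fold change -1.62, SE 0.11, adjusted p = 1.57e-16), and SLC2A1, the glucose transporter GLUT1, fell by 1.08 on the log2 scale, while SLC2A3, GLUT3, rose by 0.73 (SE 0.11). Hypoxia genes had 3 higher and 2 lower of 11, a share called close to the 45.1% of all tested genes. Their median of 0.19 was -0.003 against chip 2 alone, 0.014 without replicate 2 and 0.35 without replicate 3 of 300 nM. VEGFA, which ERK signalling also raises, fell from 49.1, 54.5 and 58.1 CPM to 14.4, 12.6 and 18.3 CPM (log2 fold change -1.84, SE 0.16, adjusted p = 3.95e-14), and NDRG1 rose from 38.3, 42.9 and 52.8 CPM to 220.0, 210.4 and 250.4 CPM (log2 fold change 2.38, SE 0.12, adjusted p = 1.04e-21).

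Of 21 p53 target genes 7 rose and 6 fell, at a median of 0.16, and of all tested genes 22.1% rose and 23% fell. They had CDKN1A, TP53INP1 and BTG2 among the rises and PLK3, AEN and TNFRSF10B among the falls (-1.85, -1.46 and -0.70). MDM2, the p53 target that restrains p53, was not called, at -0.29 (SE 0.20). Of 17 heat shock chaperones 6 rose and 3 fell, at a median of 0.13, against the same shares. HSPA1A and HSPA1B, which differ in few bases and may share reads, stood at 2.36 (SE 0.63) and 1.60 (SE 0.16), and HSPD1, the mitochondrial chaperonin, fell by 0.67 on the log2 scale. Of 13 NRF2 and aryl hydrocarbon receptor targets 5 rose and 3 fell, again beside 22.1% and 23%. Their median of 0.23 was 0.033 without replicate 2 of 300 nM and 0.080 without a low-count filter. HMOX1, heme oxygenase, rose from 6.81, 7.87 and 11.6 CPM to 30.2, 28.9 and 29.3 CPM (log2 fold change 1.84, SE 0.19, adjusted p = 2.96e-10), but GCLC, of glutathione synthesis, fell by 1.39 on the log2 scale, and NQO1 was not called, at 0.30 (SE 0.19).

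Genes often used for normalization were not all flat. Of 11 tested, 3 fell and 1 rose, where 23% and 22.1% of all tested genes fell and rose. The share called did not exceed the 45.1% of all tested genes, and the median of 0.012 turned sign between alternatives. ACTB measured 4994, 4960 and 5257 CPM against 2674, 2834 and 3000 CPM (log2 fold change 0.84, SE 0.12, adjusted p = 3.38e-07), whereas GAPDH was not called, with 6409, 6205 and 6370 CPM against 6181, 7162 and 7364 CPM (log2 fold change -0.12, SE 0.12, adjusted p = 0.459). HPRT1 and TBP fell by 1.46 and 0.91 on the log2 scale, and PPIA and RPLP0 stood at 0.001 and 0.012.

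The largest single changes included genes outside these groups. C20orf151 had 0 counts in all 6 DMSO libraries and 33, 22 and 22 at 300 nM, which puts it 46.3-fold higher by the same limit (adjusted p = 4.29e-09). Among called genes of at least 5 CPM whose groups did not overlap, the rises of MUC20, KRT14, LIPC, COL3A1 and CD36 came next, followed by STEAP4, BMF, FAM151A, BCL2L15, TNNC1 and CPA4. Genes below 5 CPM had fitted rises of like size, such as CDH16 at 4.33 (SE 0.93), UGT2A3 at 4.32 (SE 0.86) and PRND at 4.13 (SE 0.98), from DMSO libraries of which at least 1 was at 0. COL3A1, a fibrillar collagen, went from 0.825, 1.27 and 1.57 CPM to 14.2, 16.1 and 18.3 CPM (log2 fold change 3.66, SE 0.36, adjusted p = 1.77e-11). STEAP4, a metalloreductase, and TNNC1, troponin C of slow muscle and heart, reached 20.9 ± 1.06 CPM (SD, n = 3) and 91.3 ± 15.3 CPM (SD, n = 3) from 1.83 ± 0.448 CPM and 9.35 ± 1.18 CPM (SD over 3 means of same-numbered DMSO libraries). BCL2L15 stood at 3.37 (SE 0.33), FAM151A at 3.43 (SE 0.35) and CPA4, a carboxypeptidase, at 3.22 (SE 0.26).

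MYEOV, a gene amplified in myeloma and other cancers, had the largest fitted fall among genes still counted at 300 nM, 1.39, 1.75 and 0 CPM against 28.9, 37.3 and 41.8 CPM (log2 fold change -5.10, SE 0.41, adjusted p = 1.40e-12). ANKRD1, a target of YAP, had 0, 0.584 and 0 CPM against 3.77, 5.63 and 8.77 CPM, with 2 of 3 treated libraries at 0 (log2 fold change -4.82, SE 0.79, adjusted p = 4.34e-06). IL33, an alarmin cytokine, had 0.23, 0.29 and 0 CPM against 3.26, 4.47 and 7.99 CPM (log2 fold change -4.60, SE 0.74, adjusted p = 5.66e-06). The sparse counts at 300 nM make these 3 fold changes depend on the prior count. TRABD2A, a protease that cleaves WNT proteins, fell from 52.7, 57.6 and 68.2 CPM to 2.56, 2.04 and 3.35 CPM (log2 fold change -4.46, SE 0.42, adjusted p = 1.65e-09), and LOC100287314 from 20.1, 23.6 and 27.0 CPM to 1.16, 0.584 and 2.06 CPM (log2 fold change -4.16, SE 0.33, adjusted p = 7.55e-15). SLC14A1, a urea transporter too sparse to be tested, dropped from 34 counts in DMSO to 0, 6.28-fold lower with the same limit for a group at 0.

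At the border of the call, CCDC111 (-0.33 (adjusted p = 0.04996)) and LOC100270804 (1.16 (adjusted p = 0.04998)) lay just inside the threshold and PPP4C (0.24 (adjusted p = 0.0501)) and RPS6KA2 (0.50 (adjusted p = 0.0501)) just outside.

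The neighbouring doses of 100 nM and 1000 nM were set beside 300 nM to see whether the response still changed there. Against DMSO, 4499 genes were called at 100 nM and 5064 at 1000 nM, with 5457 at 300 nM. These 3 counts share their DMSO libraries, and their order was not tested. Compared directly, no gene was called between 300 and 100 nM by edgeR, while 1270 genes (10.5%) had an unadjusted p below 0.05 and the smallest adjusted p was 0.358. Between 300 and 1000 nM no gene was called either, with 1466 genes (12.1%) at an unadjusted p below 0.05 and a smallest adjusted p of 0.0761. If no gene differed, a share near 0.05 would be expected below that unadjusted p, so 0 calls do not show equal levels. DESeq2 called 0 and 4 genes, and limma voom 0 and 0. Without a filter on low counts edgeR called 188 and 270 genes. The median 95% interval of these differences spanned 0.35 log2 units on either side of the estimate, which limits what could be called for a typical gene.

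**Figure D4:**
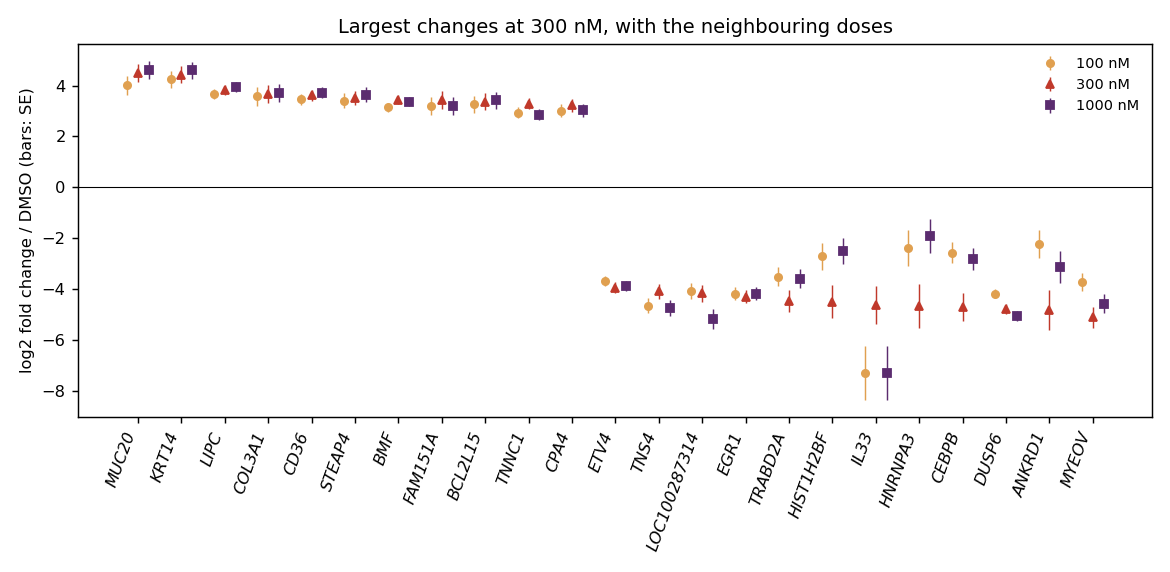
Log2 fold change against DMSO with its SE (bars) at 100, 300 and 1000 nM for 11 of the 12 largest rises at 300 nM among genes of at least 5 CPM (C20orf151, at 0 counts in DMSO, is left out) and the 12 largest falls. The rises sit close together at the 3 doses. CEBPB, ANKRD1, HNRNPA3, HIST1H2BF, TRABD2A and MYEOV have lower points at 300 nM than at either neighbour, and by less so do EGR1 and ETV4. DUSP6, IL33, LOC100287314 and TNS4 do not. The genes were chosen by their change at 300 nM, which favours such points, and none of these differences between doses was called. CEBPB and ANKRD1 had 7 and 2 counts at 300 nM, and HNRNPA3 ran from 4.50 to 115 CPM at 1000 nM. IL33 was at 0 counts at 100 and 1000 nM, where its fitted value depends on the prior count.

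The number of calls against 1000 nM depended on the filter, as above, and on the libraries. Without replicate 1 of 1000 nM, 363 genes differed (2.97%), 146 higher and 217 lower at 300 nM. Without replicate 1 of 1000 nM and 2 libraries of lower doses that stand apart (replicate 2 of 0.1 nM and replicate 1 of 1 nM), 919 were called (7.53%), and 14 against 100 nM. When replicate 3 of 300 nM was left out together with replicate 1 of 1000 nM, 4 were called. Both settings with more than 1 library left out were chosen after seeing the data.

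Side by side, list medians against DMSO at 100, 300 and 1000 nM were -1.97, -1.98 and -2.33 for MAPK activity, and -1.27, -1.29 and -1.34 for ribosome biogenesis. For the amino acid stress response they were -1.85, -1.84 and -1.85, and for interferon response genes 0.88, 0.99 and 1.21. Taken gene by gene, the median of 300 nM minus 1000 nM was 0.14 for MAPK activity and -0.18 for interferon response genes. In the MAPK list SPRY2, ETV4 and EPHA4 had differences below 0, at -0.19, -0.067 and -0.025. Single genes of these groups stood at -4.17, -4.77 and -5.06 for DUSP6, -2.50, -2.61 and -2.92 for MYC, and 1.84, 2.28 and 2.05 for BCL2L11. CDKN1A stood at 0.39, 0.79 and 0.48, higher at 300 nM than at 100 nM by 0.40 (SE 0.10), which did not pass the test (adjusted p = 0.358). Without replicate 1 of 1000 nM, genes called higher at 300 nM than at 1000 nM included EPHA2, CDKN1A, HK2 and GRN, and those called lower included CEBPB, NDC80 and XBP1. With all libraries in the edgeR fit none of these was called, with adjusted p from 0.141 (EPHA2) to 0.345 (XBP1). These calls thus rest on leaving out the 1000 nM library farthest along the 300 nM response.

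The 3 libraries at 300 nM agreed closely for most genes: among 6966 genes of at least 20 CPM the median SD of log2 levels was 0.12. Replicates 1 and 2 differed least, with a chi-square of 1.81 per degree of freedom, whereas replicate 3 differed from them by 3.33 and 3.86. Pairs of DMSO libraries within a chip gave 1.60 to 2.47. Of 32 genes with an SD of at least 0.5, replicate 3 was the farthest library in 23, the lowest in 22 of them, and replicate 2 in 9. HIST1H2BC, a histone gene, measured 29.3, 34.1 and 12.4 CPM, below all DMSO libraries at 249.5, 284 and 547 CPM (log2 fold change -3.80, SE 0.70, adjusted p = 8.80e-05). The DMSO libraries of this gene also spread widely, and so did those of 1000 nM, at 17.7, 41.8 and 185 CPM. HNRNPA3, an RNA-binding protein with many pseudogene copies, and the histone gene HIST1H2BF varied alike, with 7.43, 10.8 and 3.86 CPM and 5.11, 7.59 and 3.09 CPM at 300 nM and 4.50, 23.7 and 115 CPM and 3.66, 10.8 and 45.1 CPM at 1000 nM. Histone genes are near-identical to each other, and their reads could be shared.

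In 3 other genes replicate 2 was the one apart. FOXRED1, which helps to assemble respiratory complex I, measured 41.4, 18.4 and 50.7 CPM, DTYMK, thymidylate kinase, 26.9, 11.97 and 32.7 CPM and HS2ST1, a heparan sulfate sulfotransferase, 41.4, 19.0 and 47.6 CPM. FOXRED1 was called lower (log2 fold change -0.64, SE 0.23, adjusted p = 0.0376), but without replicate 2 its log2 fold change was -0.34 and it was no longer called, and over 20 alternatives its adjusted p ran from 9.22e-05 to 0.240. DTYMK fell under every alternative run, and HS2ST1 was not called.

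**Figure D5:**
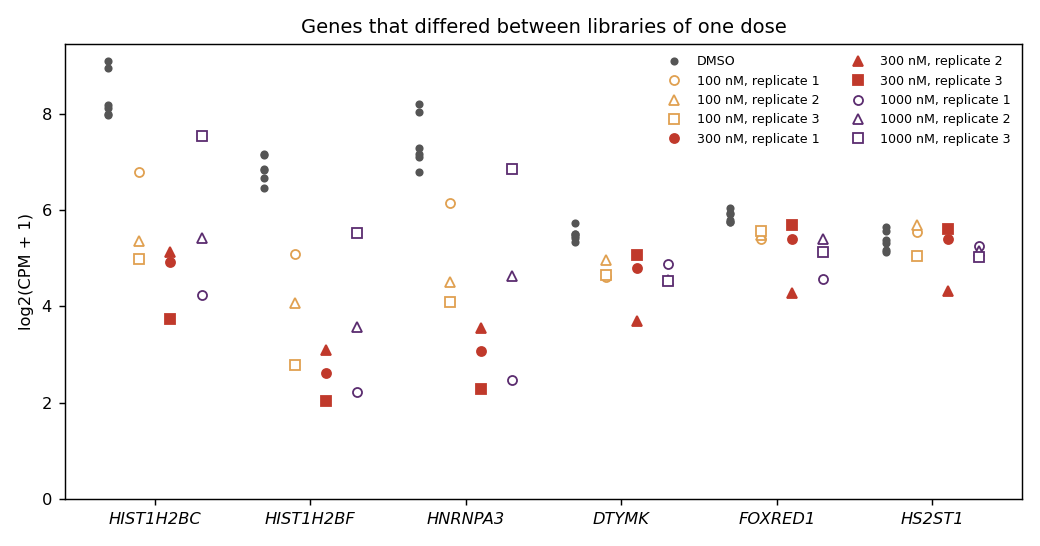
Level on a log2(CPM + 1) scale of 6 genes in each library of DMSO, 100 nM, 300 nM (filled red) and 1000 nM, with the replicates of a dose shown by marker shape. For HIST1H2BC, HIST1H2BF and HNRNPA3 replicate 3 of 300 nM (red square) is the lowest of its dose, and for DTYMK, FOXRED1 and HS2ST1 replicate 2 (red triangle) is.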

How the data were processed

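RNA of LoVo cells was reverse transcribed from 10 ng per sample, amplified as Ion AmpliSeq amplicons and pooled with 18 samples a pool, per the labels' protocols. The authors deposited whole-number counts per gene, not normalized. Per the submitters' processing notes the genome build was hg19. The aligner and counter are not given in these sources. Of 20812 rows, 10 spike-in rows held 0 counts and were left out. Counts are of amplified reads without molecular identifiers, so the limits set for groups at 0 cover counting error of that group only.

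Genes were filtered with filterByExpr over 12 groups, scaled by TMM and fitted in all 36 libraries with edgeR 4.0.16 (R 4.3.3, robust quasi-likelihood test, 24 residual degrees of freedom). The 300 nM group was tested against DMSO of chip 1 and of chip 2, since the labels give no chip for treated libraries. The larger p was adjusted over 12102 genes, and the fold change is against the mean of both sets with the larger SE. CPM use TMM-scaled library sizes. Contrasts with 100 and 1000 nM used the same fit. A simulation on 11777 genes with means and library sizes of these data recovered 26%, 84%, 100% and 100% of genes changed by 0.5, 1, 2 and 3 log2 units in the DMSO comparison, with 0 calls among unchanged genes. At 0.5 and 1 it recovered 50% and 86% against 100 nM and 40% and 92% against 1000 nM, with 8 and 12 calls among unchanged genes. In it 50 genes were changed per size, all drawn from genes with higher counts, far fewer than were called in the data. The simulated libraries were independent, without a difference between chips or a response at other doses. These rates are therefore not the power or error rate of the real comparisons.

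Same-numbered DMSO libraries of the chips deviated together (correlations of 0.39, 0.25 and 0.34 over genes) and differed less (chi-square per degree of freedom 1.53 to 1.58) than those of different number (2.07 to 2.70), so SDs of DMSO are over 3 means of such pairs. Numbers did not pair the treated with the DMSO libraries (correlations of -0.15 to -0.009), and no block was used.

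The libraries compared and the gene lists were chosen with earlier results of these data known. Genes named are the 12 that rose most and the 12 that fell most among those called, of at least 5 CPM, whose groups do not overlap, all members of the MAPK activity, BCL2 family and cascade lists, up to 4 genes of each other list by smallest adjusted p, the 5 with the largest spread at 300 nM, and 2 on either side of the threshold. Other list members were named after their values were seen, to show roles and exceptions. Alternatives were other scalings and filters, DESeq2 1.42.0, limma voom 3.58.1, other uses of the DMSO libraries, a replicate block and leaving out libraries. Promoters were matched by gene symbol to RefSeq (GRCh38.p14). Some named genes are not reported here.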

Additional observations from a re-analysis of the deposited data

How the results depend on the processing

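The number of genes called against DMSO stayed within 1.5 times of 5457 under all 23 alternatives, from 4682 to 5062 when 1 library was left out and up to 7084 when the mean of both DMSO sets was tested. DESeq2 called 5280, and the replicate block gave 5416 calls (2662 higher, 2754 lower), although the numbers do not pair treated with DMSO libraries. The block ended the calls of BTC, BAK1 and LOC100270804 among the named genes and brought PPP4C past the threshold. A call needs the larger p of both chip contrasts to pass, so tests against 1 chip alone or the mean of both cannot show a loss; these 3 alternatives lost none. Under the other 20, 162 of 169 called named genes kept the call each time; the others were BTC, RPS6KA3, BAX, BAK1, FOXRED1, CCDC111 and LOC100270804. Of 24 named genes not called, 8 passed under at least 1 of the 20, among them PPP4C under 8, RPS6KA2 under 6, BBC3 under 4, and BCL2L2, KLF6, MAP2K1 and NRAS under 1 each. Over the 23 alternatives the medians of lists near 0 ran from 0.026 to 0.19 for receptors, 0.088 to 0.19 for the cascade, 0.11 to 0.21 for p53 targets, 0.080 to 0.21 for heat shock chaperones, -0.24 to -0.12 for glycolysis and -0.20 to -0.074 for the unfolded protein response, and that of G1 regulators from 0.23 to 0.45.

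The counts between doses depended on the setting. Against 100 nM, no gene was called in the reported fit, 188 without a low-count filter, 1 with only the compared groups, 0 to 1 when 1 library was left out, and 14 without the 3 libraries that stand apart. Against 1000 nM the numbers were 270 without a filter, 4 by DESeq2, 0 to 363 when 1 library was left out (363 without replicate 1 of 1000 nM), 919 without the 3 libraries and 4 without both replicate 3 of 300 nM and replicate 1 of 1000 nM. The cause was not tested.

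The sign turned in 6 named genes, none of them called. EPHA4 was at -0.002 with at least 1 CPM in 3 libraries, -0.057 against chip 2 and -0.127 to 0.214 when 1 library was left out. HRAS was at 0.111 against chip 2 and -0.257 to 0.195 when 1 library was left out, and KSR1 at -0.136 and -0.108 to 0.213. MCL1 was at 0.004 with RLE size factors and with DESeq2, 0.014 with upper-quartile factors, 0.006 with only the compared groups, 0.012 against chip 2, 0.066 without both libraries named above, and -0.048 to 0.058 when 1 library was left out. With 1 library left out SOS1 ran from -0.041 to 0.193 and HS2ST1 from -0.409 to 0.123. Depth limits genes of a few counts, and only 12102 of 20802 genes were tested.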
